A study of Drosophila melanogaster with 3 samples.

Results

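The genes examined were 10 HMG-box and Sox genes of Drosophila melanogaster (HmgZ, HmgD, Dsp1, SoxN, D, Sox21a, Sox21b, Sox14, Sox100B and Sox15), of 13945 protein-coding genes in the annotation. They were described by the peaks called at them for the tagged protein CG10543-eGFP in embryos. The samples were 3 biological replicates of whole embryos collected over 0 to 24 h, both sexes together, of a stable transgenic line in which GFP is joined to the C-terminus of CG10543. An anti-GFP antibody was used on chromatin sonicated to 200 to 800 bp, so the mapped protein is the fusion and not the untagged protein. All samples formed 1 group and no embryos lacking the fusion were analysed here, so binding and background from other sources cannot be told apart. Whole embryos of all these ages were pooled, so the cells and the hours in which a site was occupied are unknown.

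A summit, the base of highest signal in a peak, was given to a gene when it lay inside the gene or within 5000 bp of one of its transcription start sites (TSSs). Summits came from the authors' optimal set by the irreproducible discovery rate (IDR), a measure of how well peak ranks repeat. The set held 7545 summits on dm6, and a place in it does not show a similar rank in all 3 replicates. The genes were chosen from their family with the signal ranks of this set already known, so their counts and ranks are descriptions without a test. Of the 7545 summits, 27 lay at the 10 genes. Peaks are ranked by signal, the enrichment value deposited by the authors, with rank 1 the strongest in a list. Depth is unknown, because the files hold no read counts.

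The HMG box is a DNA-binding domain that sits in the minor groove and bends the helix. HmgD, HmgZ and Dsp1 are HMGB-type proteins, abundant chromatin proteins that bind DNA with little sequence preference, and Dsp1 is also known as a co-repressor that works with Dorsal and in Polycomb silencing. Sox proteins carry a single HMG box, recognise short sites with the core ACAAT, and act as transcription factors in development. SoxN and D (Dichaete) are SoxB proteins of the early embryo and nervous system.

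The sequences below are IDR summits of Dsp1, SoxN, D and Sox100B with 100 bases on each side, shown because peaks were called there. They are plus-strand sequence from the RefSeq copy of the dm6 assembly, with exact matches to 8 searched motifs in capitals. The motifs were the Sox core ACAAT, the GAGA factor site GAGAG, the GATA site GATAA, the Zelda site CAGGTAG, the core promoter elements DRE (TATCGATA) and Motif 1 (GGTCACAC), the cyclic AMP response element (TGACGTCA) and the E-box CANNTG, each sought on both strands. An E-box match and a Sox core match can share bases. The windows are chrX:16332838-16333038 for the strongest Dsp1 summit, in an intron of CG9921, chrX:16335277-16335477 for the strongest summit nearest a Dsp1 TSS, in a Dsp1 intron, chr2L:8825392-8825592 for the strongest SoxN summit, in no gene, and chr3L:14174286-14174486 for the single D summit, in no gene. For Sox100B they are chr3R:31061382-31061582, the strongest summit, and chr3R:31064848-31065048, the summit nearest its TSS, both in no gene.
Dsp1 strongest: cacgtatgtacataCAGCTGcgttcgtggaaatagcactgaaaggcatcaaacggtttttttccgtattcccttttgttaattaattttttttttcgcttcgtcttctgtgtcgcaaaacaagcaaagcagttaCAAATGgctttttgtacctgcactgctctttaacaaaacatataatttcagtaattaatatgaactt
Dsp1 intron: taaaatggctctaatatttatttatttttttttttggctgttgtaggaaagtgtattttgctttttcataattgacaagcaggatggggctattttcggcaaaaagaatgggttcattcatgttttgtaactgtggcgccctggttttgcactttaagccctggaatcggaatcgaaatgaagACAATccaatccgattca
SoxN: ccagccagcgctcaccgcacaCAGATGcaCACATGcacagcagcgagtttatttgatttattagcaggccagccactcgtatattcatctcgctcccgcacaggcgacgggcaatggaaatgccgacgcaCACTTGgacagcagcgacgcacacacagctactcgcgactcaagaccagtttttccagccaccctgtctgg
D: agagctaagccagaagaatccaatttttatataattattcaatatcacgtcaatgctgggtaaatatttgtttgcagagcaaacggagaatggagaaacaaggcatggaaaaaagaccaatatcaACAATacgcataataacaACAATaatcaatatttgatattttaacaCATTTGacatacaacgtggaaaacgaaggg
Sox100B strongest: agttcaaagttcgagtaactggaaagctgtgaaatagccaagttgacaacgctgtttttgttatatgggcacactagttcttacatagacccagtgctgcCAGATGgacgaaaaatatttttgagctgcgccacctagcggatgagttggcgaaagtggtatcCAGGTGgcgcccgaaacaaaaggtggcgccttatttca
Sox100B near TSS: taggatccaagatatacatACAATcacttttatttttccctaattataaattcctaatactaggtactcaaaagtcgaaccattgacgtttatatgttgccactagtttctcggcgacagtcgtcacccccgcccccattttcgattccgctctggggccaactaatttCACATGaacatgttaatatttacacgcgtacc

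In the 6 windows the capitals mark E-boxes and Sox cores, since no other motif matched. The D window held 2 Sox cores, which start 25 and 43 bases after the summit, and 1 E-box that starts 71 bases after it. The SoxN window held 3 E-boxes and no Sox core. The strongest Sox100B window held 2 E-boxes, 1 starting at the summit base and the other 63 bases after it. The strongest Dsp1 window held 2 E-boxes, starting at positions -86 and 34 from the summit. Its other window held a single Sox core, 83 bases after the summit. A match describes letters and is not evidence of a site.

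Over all 27 windows, 6 held a Sox core (22.2%, against 43.1% of the 7545 IDR windows) and 16 held an E-box (59.3%, against 62.4%). GAGAG was found in 7 windows (25.9%, against 30.5% of IDR windows). GATAA was also found in 7 (25.9%, against 39.6%). The Zelda site was found in 1 window, at Sox15 (3.7%, against 0.981%), and Motif 1 in 1 window, at RpS23 beside Sox15 (3.7%, against 2.12%). The DRE and the cyclic AMP response element were found in 0 windows of the genes, against 2.33% and 0.623% of IDR windows. The median GC content of the windows was 47.3%, against 43.3% over all IDR windows, with a range of 32.3% to 60.7%. The part of base composition in the motif shares was not tested.

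Of the 10 genes, 8 had 1 or more IDR summits, against 52.6% of protein-coding genes. A summit within 500 bp of a TSS was present at 7, against 27.9% of protein-coding genes. HmgZ and HmgD had 9 and 11 summits, 9 of them shared, and 0.696% of protein-coding genes had 9 or more. The span searched was 15374 bp for HmgZ and 22679 bp for HmgD, against a median of 10001 bp over protein-coding genes. HmgZ, HmgD and Sox14 had a summit of rank 100 or better, as did 1.65% of protein-coding genes. The members of the family differed widely in count, with Dsp1 and Sox15 at 4, Sox100B at 3, SoxN and Sox14 at 2, D at 1, and Sox21a and Sox21b at 0. The median was 2.5 over the 10 genes and 1 over all protein-coding genes. The genes were chosen with these counts known, and nothing is read from them.

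**Figure D1:**
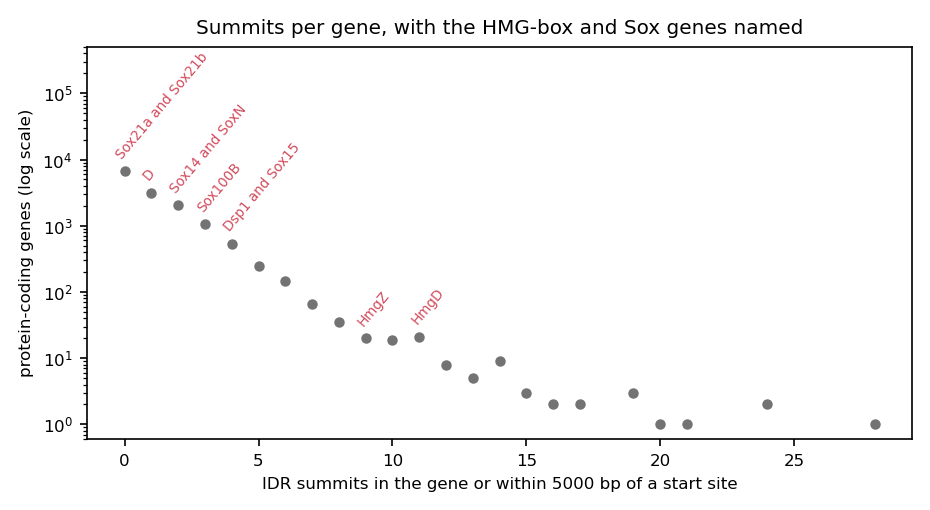
Number of protein-coding genes (y axis, log scale) by number of IDR summits in the gene or within 5000 bp of a TSS (x axis), with each of the 10 genes named above its count. HmgZ with 9 and HmgD with 11 stand in the long tail, and Sox21a and Sox21b are among the genes at 0.

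All 27 summits had a region within 200 bp in each of the 3 replicate lists, against 90.9% of IDR summits. In 18 of the 27 a region with a q-value under 0.01 lay within 200 bp in every replicate, against 61.9%. In replicates 1, 2 and 3, 27, 19 and 24 of the 27 summits had such a region, against 90.7%, 77.9% and 83.4% of IDR summits. Replicate 2 was thus the lowest for the 27 and for all IDR summits. Replicate 2 also listed the fewest regions under that q-value, 7016, against 12593 in replicate 1 and 7612 in replicate 3. The region counted need not be the nearest one. In replicate 1 the nearest region had a −log10 q-value of only 1.26 at the Sox14 summit of rank 1335. It had 0.73 at the HmgD summit of rank 5642. The largest distance between an IDR summit and its nearest replicate summits had a median of 38 bp, against 54 bp over all IDR summits, and reached 198 bp at the weak summit in the 5' UTR of CG30403. The median rank of the 27 in the IDR list was 2483, and 15 of them were among the strongest 3772 of the 7545. Their median ranks in replicates 1, 2 and 3 were 3751, 2725 and 2180, against 3940, 3885 and 3851 over all IDR summits. The pooled list held 55 regions at the 10 genes, 30 of them with a q-value under 0.01, of which 3 were not in the IDR list. No share over the whole pooled list is given, so nothing is read from these counts.

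**Figure D2:**
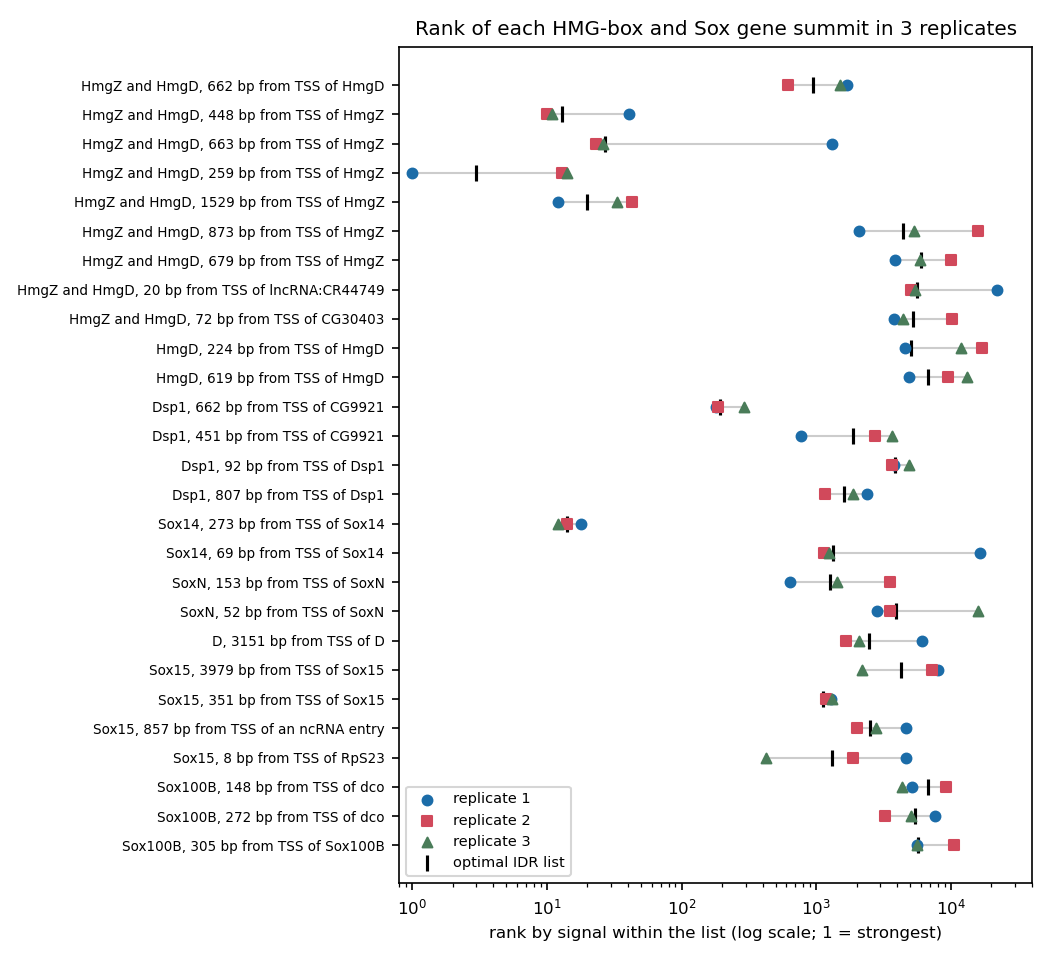
Rank of the nearest region in replicates 1, 2 and 3 (coloured symbols) and in the IDR list (black bars) for the 27 summits, on a log axis with rank 1 the strongest. The HmgZ and HmgD summits of rank 3, 13 and 20 and the Sox14 summit of rank 14 keep ranks of 50 or better in all 3 replicates, and among the weaker summits the spread differs widely, with replicate ranks of 1184 to 1305 at the Sox15 summit of rank 1119 and of 1149 to 16562 at the Sox14 summit of rank 1335.

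HmgZ and HmgD carried the strongest peaks of the family. HmgZ (FBgn0010228, dm6 chromosome arm 2R, 21697488 to 21707861, minus strand) and HmgD (FBgn0004362, 21701458 to 21716727, plus strand) run in opposite directions and overlap by 6404 bp, so 9 of their 11 summits belong to both. The strongest lay at 21704760, at an intronic base of both genes and 259 bp upstream of an HmgZ TSS. It had rank 3 in the IDR list and ranks of 1, 13 and 14 in replicates 1, 2 and 3 (mean 9.33 ± 7.23, SD, n = 3). The summit at 21703278, 448 bp upstream of another HmgZ TSS, had rank 13, and ranks of 41, 10 and 11 in the replicates (20.7 ± 17.6). The summit at 21706030, 1529 bp upstream of the TSS it is nearest to, had rank 20, and ranks of 12, 43 and 33 (29.3 ± 15.8).

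These 3 summits are among 23 IDR summits with rank 50 or better in every replicate, of which 4 lay at the 10 genes. Another strong summit, at 21703493, shares the peak interval of the summit at 21703278, and its nearest region ranked 1318 in replicate 1 but 23 and 26 in replicates 2 and 3. Counting it, 4 of the 27 strongest IDR summits lay at HmgZ and HmgD, and no other protein-coding gene had more than 1 of them, a limit chosen after the ranks were seen. These strong summits lay between the first HmgD exon and the most upstream HmgZ exon, all at intronic bases of both genes. The signal there was 2457.7 to 4629.6, against 221.7 to 676 at the 7 other summits of the pair.

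**Figure D3:**
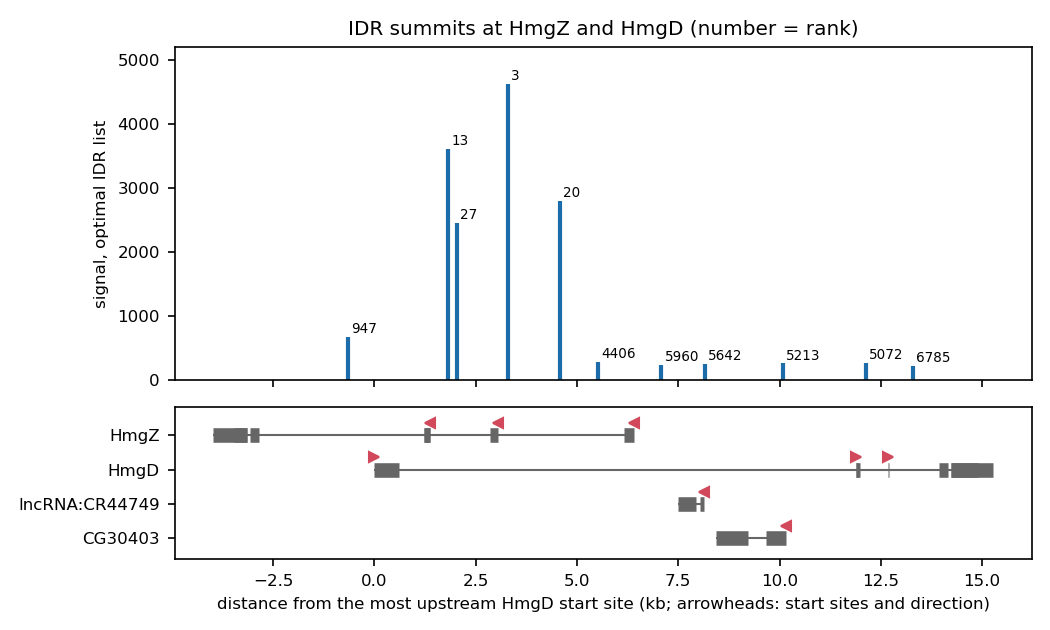
Signal of the 11 IDR summits at HmgZ and HmgD (upper panel, linear axis from 0, rank printed beside each) against distance from the most upstream HmgD TSS in kb, above the exons (boxes) and start sites (arrowheads, pointing in the direction of transcription) of HmgZ, HmgD and the 2 genes inside HmgD. The summits of rank 3, 13, 20 and 27 fall in introns of both genes. The summits at the other HmgD start sites and at the most upstream HmgZ start site are weak.

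The other HmgD start sites carried weak summits, as did the most upstream HmgZ TSS. At 21713580, 224 bp downstream of an HmgD TSS, the rank was 5072, with 4559, 16891 and 11931 in the replicates. At 21714755, 619 bp downstream of another, the rank was 6785, the lowest of the 27, with 4881, 9497 and 13168. The summit 873 bp downstream of the most upstream HmgZ TSS had rank 4406, with 2075, 15755 and 5285 in the replicates. The summit 679 bp upstream of that TSS had rank 5960, with 3860, 10040 and 5911. Upstream of the first HmgD TSS, by 662 bp, lay a summit of rank 947 with replicate ranks of 1705, 612 and 1510. It lies in an HmgZ intron, so it cannot be given to either gene alone. Within the HmgD intron 2 further summits were nearest to other genes, at rank 5642, 20 bp from the TSS of lncRNA:CR44749, and at rank 5213, in the 5' UTR of CG30403.

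Dsp1 (X, 16333612 to 16340624, plus strand) had 4 summits. Its strongest, at 16332938, had rank 193, and 179, 188 and 290 in the replicates (219 ± 61.7, SD, n = 3). It lay 674 bp from the Dsp1 TSS but 662 bp from the TSS of CG9921, in an intron of that gene. The summit at 16333149 had rank 1890, and 776, 2725 and 3665 in the replicates. The summit in the Dsp1 5' UTR, at 16333704, had rank 3857, and 3788, 3662 and 4917. The summit in a Dsp1 intron, at 16335377, had rank 1596, and 2380, 1159 and 1889.

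Among the SoxB genes the signal was modest at SoxN and D and absent from the IDR list at the other 2. SoxN (2L, 8825645 to 8829670, plus strand) had a summit 153 bp upstream of its TSS, at rank 1258, with 642, 3558 and 1417 in the replicates (1872 ± 1510, SD, n = 3). Without replicate 2 the mean rank was 1030. The second, 52 bp downstream and in the 5' UTR, had rank 3929, with 2820, 3558 and 15917. Both have the same nearest region in replicate 2, so they were not told apart there. D (3L, 14175610 to 14178620, minus strand) had its summit at 14174386, beyond the 3' end of the gene and 3151 bp from the nearest TSS, at rank 2483. Its replicate ranks were 6084, 1669 and 2060 (3271 ± 2444, SD, n = 3), with a mean of 1864 without replicate 1. It was the only summit in the 75140 bp from the start of Sox21a to the end of D.

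Sox21a and Sox21b, SoxB genes on the same stretch of 3L, had 0 IDR summits. The pooled list held 1 region at Sox21a, of rank 23804 of 30000 and 20 bp from its TSS, and 2 at Sox21b, of ranks 27746 and 11626. None of the 3 had a q-value under 0.01 in the pool. In replicate 1, 1 region in a Sox21b intron did, at rank 12100 with a −log10 q-value of 2.131. The nearest IDR summit beyond the reach of the genes lay 52205 bp away for Sox21a and 43062 bp away for Sox21b, and the summit of D is the one nearest to Sox21b.

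**Figure D4:**
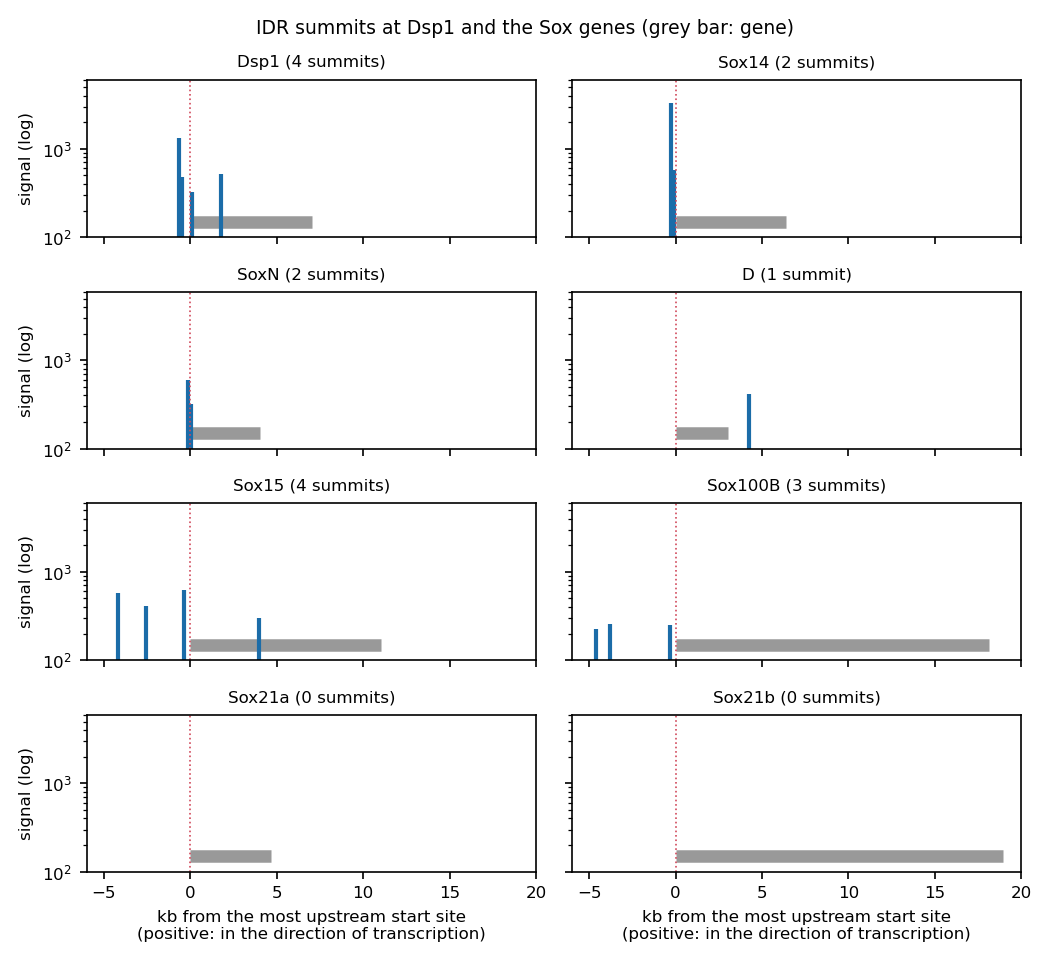
Signal of IDR summits (log axis from 100) against distance from the most upstream TSS in kb, positive in the direction of transcription, for Dsp1 and the Sox genes, with the gene as a grey bar and the TSS as a dotted line. The strongest summit of Sox14 lies just upstream of the gene, the summit of D lies past its 3' end, and Sox21a and Sox21b have 0.

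Sox14, a SoxC gene that ecdysone induces and that is needed for dendrite pruning, had the strongest peak of the Sox genes. Its summit lay 273 bp upstream of the TSS (2R, 23978801 to 23985177, plus strand), with rank 14 in the IDR list and 18, 14 and 12 in the replicates (14.7 ± 3.06, SD, n = 3). A second summit in the same peak interval, 69 bp upstream, had rank 1335, and 16562, 1149 and 1250 in the replicates. The nearest region in replicate 1 was far weaker than in the others, so the second summit rests mainly on replicates 2 and 3.

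Sox15, a SoxF gene (2R, 14201390 to 14212413, minus strand), had its steadiest summit 351 bp upstream of the TSS, at rank 1119 with 1285, 1184 and 1305 in the replicates (1258 ± 64.9, SD, n = 3). An intronic summit, 3979 bp from the TSS, had rank 4270 with 8084, 7197 and 2180. The other 2 lay nearer to other genes. One, of rank 1319 with 4612, 1875 and 423, was 8 bp from the TSS of RpS23, a ribosomal protein gene, and 4206 bp from that of Sox15. The other, of rank 2489, was 857 bp from an annotated noncoding transcript.

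Sox100B, a SoxE gene with a role in testis development (3R, 31065253 to 31083407, plus strand), had only weak summits. The one 305 bp upstream of its TSS had rank 5735, with 5579, 10584 and 5576 in the replicates. The others, of rank 5450 and 6722, were nearest to dco, a kinase gene of the circadian clock, at 272 and 148 bp. Over the family, 19 of the 27 summits were nearest to a TSS of 1 of the 10 genes and 8 to a TSS of another gene. Their median distance from the nearest TSS was 351 bp, against 340 bp over all IDR summits. Of the 27, 15 lay at an intronic base of some gene, 8 in no gene, 5 in a 5' UTR and 0 in coding sequence. A base was counted in each class it belongs to. All 11 summits of HmgZ and HmgD are among the 15. No share over all IDR summits is given for these classes, so nothing is read from them.

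With a limit of 2000 or of 1000 bp from a TSS, or a place in the gene, 22 of the 27 summits were kept and 7 of the 10 genes had one, against 38.4% and 34% of protein-coding genes. D was the gene lost, since its summit lies outside the gene. The farthest summit kept was 5530 bp from an HmgD TSS, inside the gene, and the farthest outside a gene body was 4628 bp from that of Sox100B. The nearest one left out lay 5391 bp from the Sox15 TSS, with rank 2309.

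For comparison, of 11 other HMG-box genes 10 had an IDR summit and 5 had one within 500 bp of a TSS. The shares of all protein-coding genes were 52.6% and 27.9%. bbx had one of rank 48, with 88, 36 and 59 in the replicates (61 ± 26.1, SD, n = 3). Hmg-2 had one of rank 205 (233 ± 92, SD, n = 3), and cic, the repressor that receptor tyrosine kinase signalling relieves, had 8 with a best rank of 1230. TFAM, which packages mitochondrial DNA, had 3 with a best rank of 1220, that summit being 96 bp from the TSS of a small nucleolar RNA gene. pan, the TCF factor of Wnt signalling, had 4 with a best rank of 2540, 29 bp from the TSS of RpS3A. The Sox102F summit had rank 1305. The testis genes tHMG1 and tHMG2 shared a summit of rank 2366, nearest to the tHMG2 TSS. The Brahma complex genes Bap111 and polybromo had 1 each, of rank 2462 and 3919, both nearest to another gene. Ssrp, a subunit of the FACT histone chaperone, had 0. Of 12 genes known to act with the 10, 8 had a summit, all with 1 or more within 500 bp of a TSS. These counts stand beside the same 52.6% and 27.9% of all protein-coding genes. Trl, which encodes the GAGA factor, had the strongest, of rank 6 (7 ± 3.61, SD, n = 3). EcR, the ecdysone receptor gene, had 14 with a best rank of 972, in an EcR intron and nearest to the TSS of a transfer RNA gene. usp, which encodes its partner, had 3 with a best rank of 869, 55 bp from the TSS of Actn and 4638 bp from that of usp. The co-repressor gene gro had 4 with a best rank of 538, and Mical had 4 with a best rank of 1960, in a Mical intron and nearest to the TSS of CG31407. dl, vvl and esg had 1 each, of rank 4129, 5563 and 6606. The best summits of Sox102F, polybromo, Mical and esg were matched in 2 of the 3 replicates, and those of the other genes of both lists with a summit in all 3. The dorsal-ventral patterning genes vnd, ind and Dr, which act with SoxN and D, had 0, as did dsx. The genes whose strongest peak was most like that of HmgZ, by the sum over 3 replicates of absolute differences in log2 rank, were cbt (1.35), a zinc-finger factor gene, Gapdh2 (2.95), a glycolytic gene, and hll (3.29).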

How the data were processed

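For 3 replicates, their pool and the optimal IDR set, the authors deposited region lists with a signal value and a −log10 q-value per region. Per the file headers, each of these except the IDR set was called against 1 shared control alignment. No aligner or peak caller is given in the sources used here. Signal served to rank regions within a list and to describe IDR peaks beside each other, and its unit is not stated. The dm6 lists were used, with genes from Ensembl release 115 and sequence from the RefSeq copy of the same assembly. All regions lay within its arm lengths. The dm3 lists were not used, and 0 per-sample value columns were left out. A summit matched a replicate region when its nearest summit lay within 200 bp. Python 3.11.15, NumPy 2.4.6 and Matplotlib 3.10.9 were used, and the assignment of summits to genes was tested on simulated data. The 10 genes, the gene lists, the motifs and the thresholds were chosen with earlier results of these data known. Genes named were the 10, those of both lists chosen for the text, those nearest a summit, and the 3 with strongest peaks most like that of HmgZ. As 1 group was measured, no test was run. Spreads are SDs over 3 replicates. Alternatives varied the distances, the list, the replicates, the rank measure and the motif window.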

Additional observations from a re-analysis of the deposited data

How the results depend on the processing

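No paired analysis was possible because all samples form 1 group and no test was run. Under other settings, 61 values that describe the 10 genes stayed within 1.5 times a reported count or 1 SD of a reported mean rank. The other 11 moved. Leaving out 1 of 3 replicates cannot shift a mean rank by 1 SD, so those values say nothing on stability. The counts of summits and genes without 1 replicate also stayed the same, as all 27 summits were matched in every replicate. HmgZ and HmgD share their strongest summit, so its rank enters under both genes. With the 3772 strongest IDR summits, 15 summits were left in place of 27, by construction. With a TSS distance of 200 bp in place of 500, 3 of the 10 genes had a near summit, against 7. The share of all protein-coding genes at 200 bp is not given, so this fall is not read as a trait of the genes. With 50 bases on each side, 2 windows held a Sox core, 6 an E-box, 4 GAGAG and 4 GATAA, against 6, 16, 7 and 7. At that width the shares were 7.41%, 22.2%, 14.8% and 14.8%, against 24.3%, 39%, 15.4% and 23.2% of all IDR windows. Ranked by −log10 q-value, the strongest summits of HmgZ, HmgD, Dsp1, Sox14, Sox15 and D all had a mean rank of 2297. The tie arises since 6333, 3475 and 3969 regions share the highest value in replicates 1, 2 and 3. The unknown depth limits what a region missing from a list says.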
